A study of Mus with 6 samples.

Results

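Soat2 and 6 further genes of cholesterol esterification and efflux are described here in 4T1, a mouse mammary carcinoma cell line, with and without isopimaric acid (IPA), a plant diterpene acid that the title of the series calls an ion channel regulator. The members are Soat2 (ENSMUSG00000023045), Soat1 (ENSMUSG00000026600), Abca1 (ENSMUSG00000015243), Abcg1 (ENSMUSG00000024030), Apoe (ENSMUSG00000002985), Mylip (ENSMUSG00000038175) and Nr1h2 (ENSMUSG00000060601), 7 of the 35304 Ensembl gene IDs in the table of read counts. The names of these IDs came with the list of members and were not checked against an annotation here. They were chosen by their place in this pathway and on the fold changes between IPA-treated and untreated cells of the same libraries, where Soat2 stood out, so every treated-against-untreated value below is a description and not a test of these genes.

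The untreated group had 3 libraries of cells that received no agent, and the IPA group had 3 libraries of cells given 10 µg/mL IPA for 24 h. Both groups were the same line grown in the same serum-containing medium, and total RNA was sequenced. The labels name no vehicle for the untreated cells, and they do not say whether the replicates were separate cultures, so the spread between libraries may be technical. Marker genes of mammary epithelium and other cells were not analysed here, because only the 7 members have both an ID and a name.

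Cells keep free cholesterol within limits by storing it, exporting it or taking up less of it. The Soat enzymes of the endoplasmic reticulum join a fatty acyl chain to cholesterol, and the esters go to lipid droplets or into lipoproteins; Soat1 acts in most tissues, while Soat2 is best known from liver and intestine. LXR receptors, of which Nr1h2 encodes the beta form, bind oxysterols and switch on genes for export (Abca1, Abcg1), for a lipid-carrying apolipoprotein (Apoe) and for a ligase that marks the LDL receptor for breakdown (Mylip).

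Total counts ranged from 3410411 in IPA replicate 1 to 58924711 in untreated replicate 2. Levels are given as CPM, the count scaled to the total of its library, with no correction for transcript length. Comparisons are therefore made between libraries, and a rank among other genes also depends on transcript lengths. A count of 3 corresponds to 0.88 CPM in IPA replicate 1 and to between 0.0509 and 0.148 CPM in the other libraries. Untreated replicate 2 stood apart over all genes: its log2 CPM correlated at 0.779 to 0.811 with the other libraries, against 0.922 to 0.987 among those 5. Each comparison is therefore given with all 6 libraries and without that library. The correlations run over genes, and genes are no replicates.

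Soat2, the esterifying enzyme best known from liver and intestine, was low in every untreated library and higher in every IPA library. Untreated replicates 1, 2 and 3 had 23, 51 and 41 reads of Soat2, or 1.14, 0.866 and 0.775 CPM. IPA replicates 1, 2 and 3 had 81, 903 and 1072 reads, or 23.8, 20.7 and 26.1 CPM. The groups did not overlap, and the lowest IPA library held 18.2 times the level of the highest untreated library. The group means were 0.925 ± 0.187 CPM untreated and 23.5 ± 2.71 CPM with IPA (SD, n = 3 each).

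The spread of Soat2 within each group was small beside the distance between the groups. The highest untreated level was 1.46 times the lowest, and the highest IPA level was 1.26 times the lowest. Untreated replicate 2, which departed from the other libraries over all genes, had 0.906 times the mean Soat2 level of untreated replicates 1 and 3. Counting error was also small: the 95% Poisson intervals of the untreated libraries ran from 0.557 to 1.70 CPM over all 3, and those of the IPA libraries from 18.9 to 29.5 CPM. These intervals cover counting error only. The IDs of each library were also ranked by CPM, a rank that depends on transcript lengths as well. Soat2 lay above 44.2 to 48.1% of all IDs in the untreated libraries and above 75.4 to 77.8% in the IPA libraries.

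**Figure D1:**
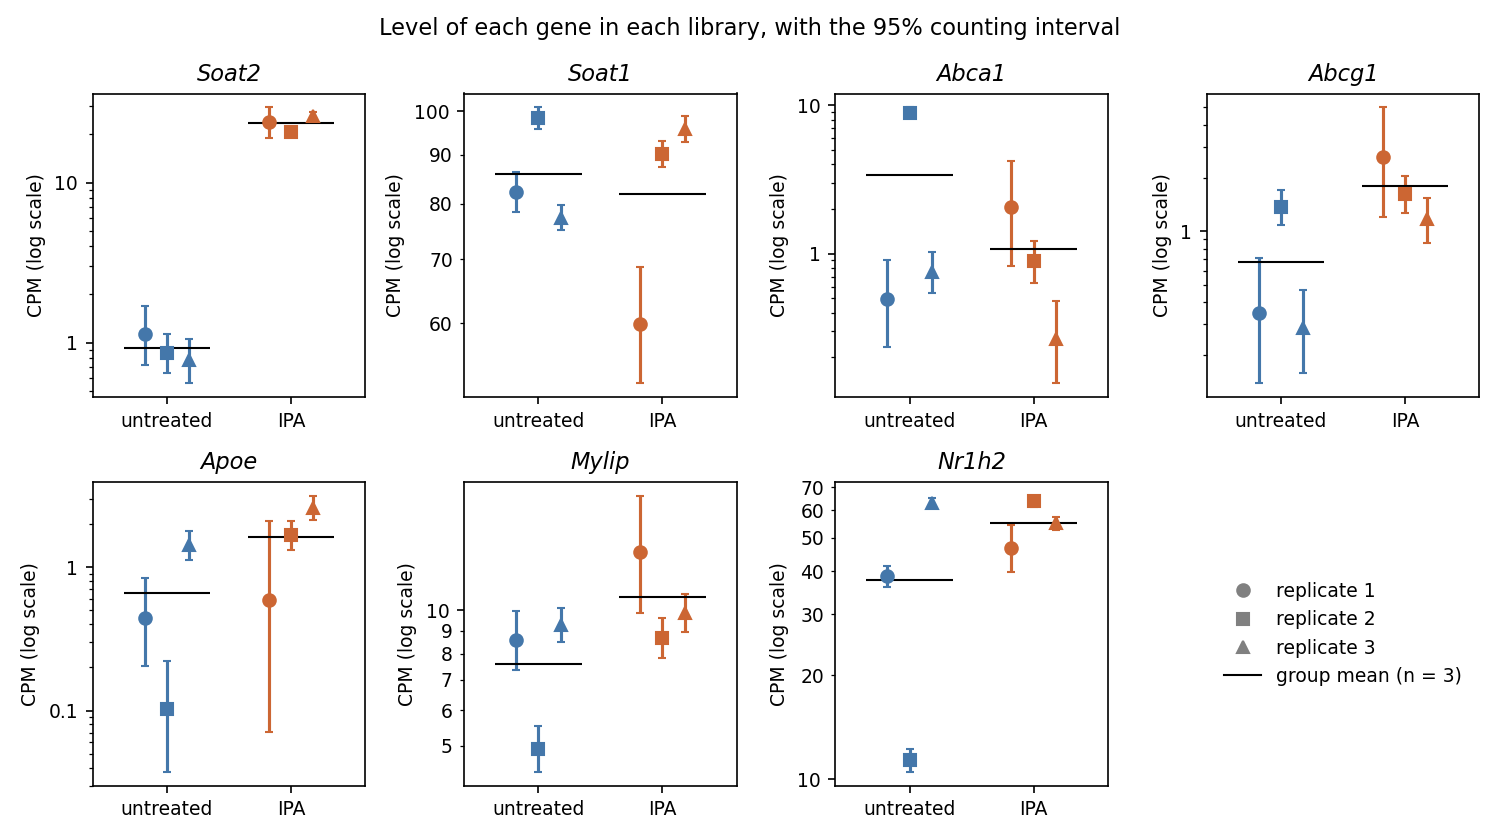
CPM (log scale) of each of the 7 genes in the 3 untreated (blue) and 3 IPA (orange) libraries; points are libraries, bars are exact 95% Poisson intervals of the counts and lines are group means. Soat2 is the gene whose groups do not overlap, with untreated libraries between 0.775 and 1.14 CPM and IPA libraries between 20.7 and 26.1 CPM.

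The edgeR estimate of the Soat2 difference over all 6 libraries was a log2 fold change of 4.43 ± 0.34 (SE), a fold of 21.6 with a 95% interval from 12.4 to 37.6. It was 4.58 ± 0.29 without untreated replicate 2, a fold of 23.9 with an interval from 15.8 to 36.2. Leaving out IPA replicate 1, the shallowest library, as well gave 4.63 ± 0.28. Among the 24935 IDs tested over all 6 libraries, Soat2 had the third-highest log2 fold change, at rank 3, and among the 25592 tested without untreated replicate 2 it was at rank 12.

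Soat1, the widely expressed enzyme of the same reaction, had no such difference. Its levels were 82.3, 98.3 and 77.4 CPM in untreated replicates 1, 2 and 3. They were 59.8, 90.2 and 95.7 CPM in IPA replicates 1, 2 and 3. The lowest value came from the shallowest library, with 204 reads, and the highest from untreated replicate 2, so the groups overlapped at both ends. Group means were 86.0 ± 11.0 CPM untreated and 81.9 ± 19.3 CPM with IPA (SD, n = 3 each). The log2 fold change was -0.33 ± 0.31 (SE) over all 6 libraries, with a 95% interval of the fold from 0.481 to 1.31. The other 5 libraries, with untreated replicate 2 left out, gave -0.04 ± 0.16, with an interval from 0.765 to 1.23. Soat1 could thus have changed by up to these factors in either direction without being told from its spread.

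Setting the Soat2 reads against the Soat1 reads of the same library removes any scaling between libraries. Soat2 made up 1.36% of the reads of both genes in untreated replicate 1, 0.872% in untreated replicate 2 and 0.992% in untreated replicate 3. With IPA it made up 28.4%, 18.7% and 21.4% in replicates 1, 2 and 3. The exact (Clopper-Pearson) 95% intervals reached no higher than 2.04% in an untreated library and no lower than 17.6% in an IPA library. IPA replicate 1, at 28.4% with an interval from 23.3 to 34.0%, was higher than the other IPA libraries, and it was also the library with the lowest Soat1 level. The shares averaged 1.08 ± 0.255% untreated and 22.8 ± 5.02% with IPA (SD, n = 3 each). They are shares of reads and not of molecules or enzyme, since the lengths of the transcripts were not used.

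**Figure D2:**
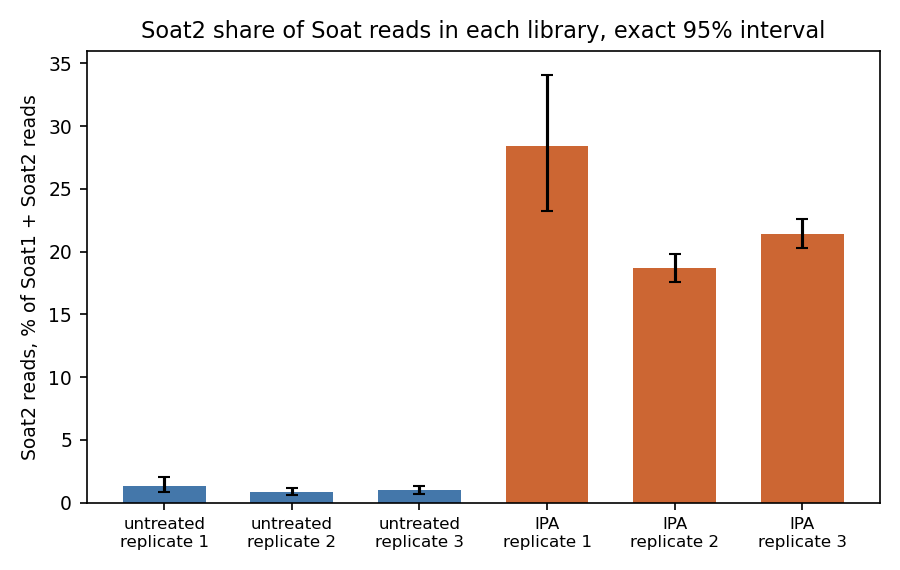
Share of Soat2 in the reads of Soat1 and Soat2 together (percent, y axis) in each of the 6 libraries; bars are the shares and whiskers the exact 95% binomial intervals. Untreated libraries lie between 0.872 and 1.36% and IPA libraries between 18.7 and 28.4%.

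Taken as a sum, the reads of both Soat genes came to 83.4, 99.2 and 78.2 CPM in untreated replicates 1, 2 and 3 and to 83.6, 111 and 122 CPM in IPA replicates 1, 2 and 3. On library totals these sums overlapped between the groups, because the 83.6 CPM of IPA replicate 1 lay among the untreated values. With the TMM factors that the fits use, Soat1 alone stood at 130 CPM in untreated replicate 2. In IPA replicates 1, 2 and 3 Soat1 then stood at 53.8, 83.4 and 90.5 CPM and Soat2 at 21.3, 19.1 and 24.7 CPM. On that scale the sum of untreated replicate 2 was above those of all IPA libraries. Summed over all 7 members on library totals, the levels were 132, 126 and 153 CPM untreated and 149, 187 and 191 CPM with IPA, in the same order. With the TMM factors these sums were 130, 167 and 149 CPM untreated and 134, 173 and 180 CPM with IPA.

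Both efflux transporters were read at low counts, and neither had groups that were apart over all 6 libraries. Abca1, which loads cholesterol onto lipid-poor apolipoproteins, had 10, 523 and 40 reads in untreated replicates 1, 2 and 3, or 0.494, 8.88 and 0.757 CPM. In IPA replicates 1, 2 and 3 it had 7, 39 and 11 reads, or 2.05, 0.895 and 0.268 CPM. The highest library was untreated replicate 2, at 14.2 times the mean of the other untreated libraries, and the remaining 5 libraries of both groups were intermixed below it. Replicates of the IPA group also spread widely, the highest being 7.66 times the lowest, and the 7 reads of IPA replicate 1 gave a 95% interval from 0.825 to 4.23 CPM.

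The estimate for Abca1 had no settled direction once that library was left out. Over all 6 libraries its log2 fold change was -2.34 ± 1.40 (SE), with a 95% interval from -5.65 to 0.97. With untreated replicate 2 left out it was 0.19 ± 0.71, with an interval from -1.29 to 1.67, which spans folds from 0.41 to 3.19. Further analyses of the libraries other than untreated replicate 2 fell on both sides of 0, among them -0.33 with limma-voom, -0.21 without IPA replicate 1 besides and 0.41 with DESeq2. A change of Abca1 within the interval could not be told from the spread between these libraries, which exceeded counting error: the 95% Poisson intervals of IPA replicates 2 and 3 ran from 0.636 to 1.22 CPM and from 0.134 to 0.48 CPM.

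Abcg1, which passes cholesterol on to mature high-density lipoprotein, had 7, 81 and 15 reads in untreated replicates 1, 2 and 3, or 0.346, 1.37 and 0.284 CPM. With IPA it had 9, 71 and 48 reads in replicates 1, 2 and 3, or 2.64, 1.63 and 1.17 CPM. Untreated replicates 1 and 3 were the 2 lowest libraries, while untreated replicate 2 lay above IPA replicate 3, so the groups overlapped over all 6 libraries and were apart without untreated replicate 2. With the TMM factors that the fits use, untreated replicate 2 stood at 1.82 CPM. That was above IPA replicates 2 and 3, at 1.51 and 1.11 CPM, and below IPA replicate 1, at 2.37 CPM. The log2 fold change was 0.97 ± 0.91 (SE) over all 6 libraries, with a 95% interval from -1.18 to 3.13. It was 2.27 ± 0.58 without untreated replicate 2, a fold of 4.83 with an interval from 2.08 to 11.2.

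The Abcg1 value without untreated replicate 2 rested on 22 reads in the untreated group. On the same libraries DESeq2 gave a log2 fold change of 2.35 and no adjusted p. There limma-voom gave 2.12 with an adjusted p of 0.0313. The edgeR adjusted p of Abcg1 over all IDs was 0.0356 without untreated replicate 2 and 0.0205 without IPA replicate 1 as well. With untreated replicate 1, untreated replicate 3, IPA replicate 2 or IPA replicate 3 left out in addition, it was 0.164, 0.156, 0.132 and 0.0794, with log2 fold changes of 2.40, 2.09, 2.35 and 2.58. In the first pair of these fits the untreated group has a single library, which is assumed to vary like the IPA group. Over the other analyses of all 6 libraries, or of 5 with untreated replicate 2 kept, the log2 fold change of Abcg1 ran from 0.59 to 1.47, apart from 2.14 with sample weights that gave untreated replicate 2 a weight of 0.0388.

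Apoe, the apolipoprotein that accepts exported lipid, was the member with the fewest reads in a library. Untreated replicates 1, 2 and 3 had 9, 6 and 76 reads, or 0.444, 0.102 and 1.44 CPM. IPA replicates 1, 2 and 3 had 2, 73 and 107 reads, or 0.586, 1.67 and 2.61 CPM. The libraries of high level were untreated replicate 3 and IPA replicates 2 and 3, and the 2 reads of IPA replicate 1 are under the 3 that set its lowest reliable level. Untreated replicate 2 was the lowest library, at 0.108 times the mean of the other untreated libraries. The log2 fold change was 1.24 ± 0.99 (SE) over all 6 libraries, with a 95% interval from -1.10 to 3.58, and 0.81 ± 0.51 without untreated replicate 2, with an interval from -0.25 to 1.87. Without untreated replicate 3, in place of untreated replicate 2, it was 2.50 ± 1.11.

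Mylip, the ligase that lowers the LDL receptor, was measured with more reads. It stood at 8.59, 4.92 and 9.29 CPM in untreated replicates 1, 2 and 3, on 174, 290 and 491 reads. It stood at 13.5, 8.69 and 9.87 CPM in IPA replicates 1, 2 and 3, on 46, 379 and 405 reads. The lowest library was again untreated replicate 2 and the highest was IPA replicate 1, and the other 4 libraries lay between 8.59 and 9.87 CPM. The log2 fold change was 0.28 ± 0.32 (SE) over all 6 libraries and 0.09 ± 0.24 without untreated replicate 2. The 95% interval of the fold in the latter ran from 0.75 to 1.51, so a change of Mylip within that range could not be told from the spread between those 5 libraries.

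Nr1h2, the LXR receptor itself, was read well in every library. Its levels were 38.6, 11.3 and 62.9 CPM in untreated replicates 1, 2 and 3. They were 46.6, 63.6 and 55.0 CPM in IPA replicates 1, 2 and 3. Untreated replicate 2 was the lowest, at 0.223 times the mean of the other untreated libraries, and IPA replicates 1 and 3 lay between untreated replicates 1 and 3, with IPA replicate 2 just above untreated replicate 3. The log2 fold change was 0.42 ± 0.47 (SE) over all 6 libraries and 0.03 ± 0.18 without untreated replicate 2, the latter with a 95% interval of the fold from 0.784 to 1.33.

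**Figure D3:**
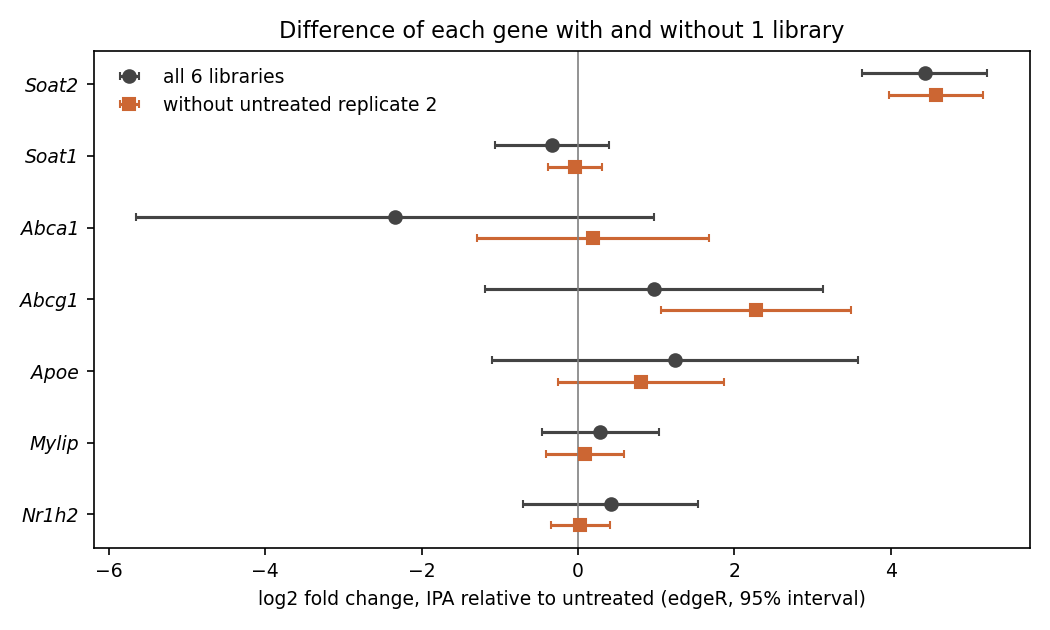
Log2 fold change of each gene, IPA relative to untreated (x axis), from edgeR over all 6 libraries (dark circles) and without untreated replicate 2 (orange squares); bars are 95% intervals. The interval of Soat2 lies above 3.63 in both, that of Abcg1 lies above 0 only without untreated replicate 2, and those of the other 5 genes include 0 in both.

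All 7 members passed the filter on low counts in both fits. Over all 6 libraries edgeR called 0 of the 7 at an adjusted p under 0.05, and 0% of the 24935 IDs tested. Soat2 was the member with an unadjusted p under 0.05, as were 1560 of all IDs, and its adjusted p of 0.0746 was the smallest of the table. DESeq2 on the same libraries called 1 of the 7, Soat2, against 0.46% of the IDs it gave an adjusted p, and limma-voom called 0 of the 7 and 0% of IDs. Without untreated replicate 2, edgeR called 2 of the 7, Soat2 and Abcg1, both higher with IPA, against 3.46% of the 25592 IDs tested. Since the members were chosen on this contrast, nothing is read from these counts.

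The groups did not overlap in CPM for 1 of the 7 members over all 6 libraries, Soat2, against 22.1% of all IDs tested. Leaving out untreated replicate 2, they did not overlap for 2 of the 7, Soat2 and Abcg1, against 34% of the same IDs. The median log2 fold change of the members was 0.42 over all 6 libraries, against -0.08 over all IDs, and 0.19 without untreated replicate 2, against -0.04. Of the members, 5 of 7 had a log2 fold change above 0 over all 6 libraries, against 45.5% of all IDs. Leaving out untreated replicate 2 gave 6 of 7, against 45.8% of all IDs, and there Soat1, Mylip, Nr1h2 and Abca1 lay between -0.04 and 0.19.

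**Figure D4:**
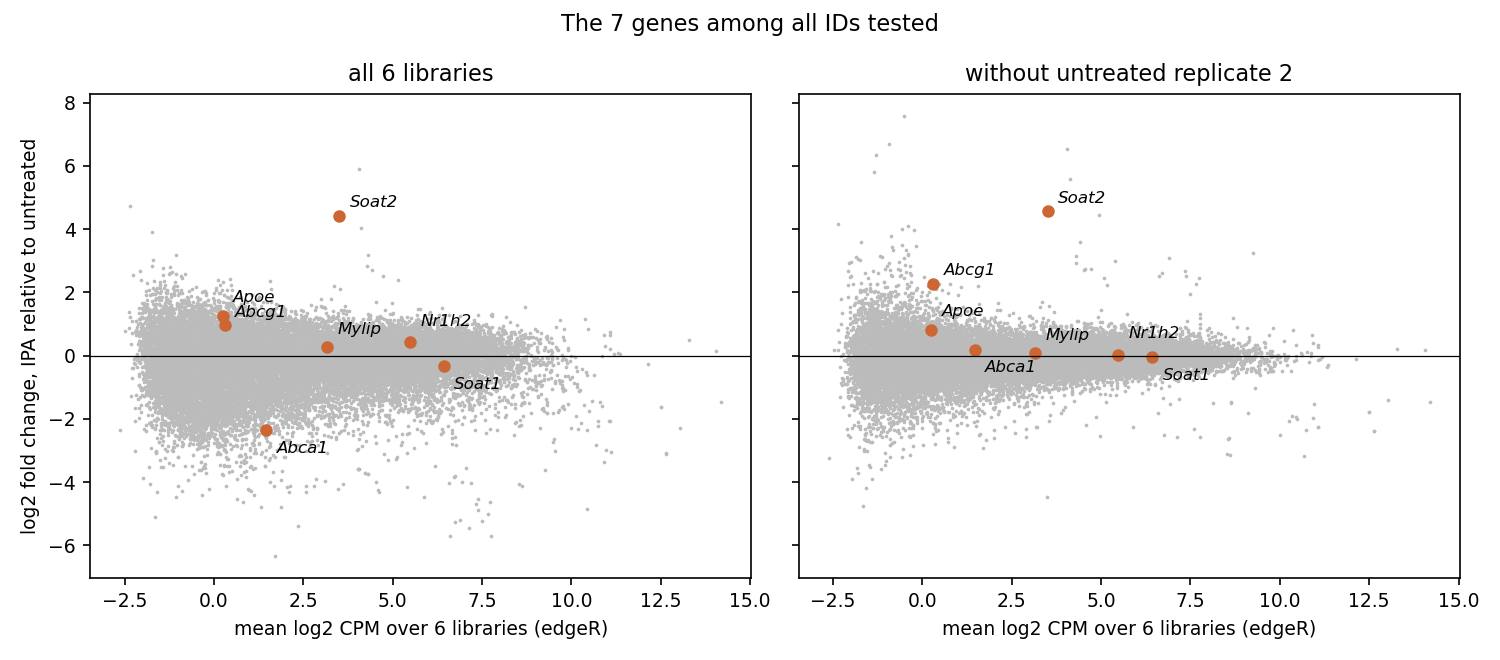
Log2 fold change, IPA relative to untreated (y axis), against mean log2 CPM (x axis) for the IDs tested over all 6 libraries (grey), with the 7 genes in orange; the left panel uses all 6 libraries and the right panel leaves out untreated replicate 2. Soat2 lies far above the body of IDs of its level in both panels, at 4.43 and 4.58, while Abca1 lies at -2.34 and 0.19.

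Untreated replicate 2 moved with the members in different directions and sizes. Relative to the mean of untreated replicates 1 and 3 it had 14.2 times the Abca1 level, 4.37 times the Abcg1 level and 1.23 times the Soat1 level. It had 0.906 times the Soat2 level, 0.551 times the Mylip level, 0.223 times the Nr1h2 level and 0.108 times the Apoe level. Both transporter genes were thus higher in this library, and the receptor and apolipoprotein genes lower. With the TMM factors that the fits use, the ratio of Soat1 was 1.67 and that of Soat2 was 1.22, while those of Abca1, Abcg1, Mylip, Nr1h2 and Apoe were 19.2, 5.91, 0.745, 0.303 and 0.147. What sets this library apart was not tested. In the edgeR fit the biological coefficient of variation fell from 1.03 to 0.436 for Abca1, from 0.83 to 0.341 for Apoe and from 0.345 to 0.174 for Soat2 once it was left out. The median over all IDs was 0.511 with this library and 0.206 without it.

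The levels of the other 6 members did not follow that of Soat2 closely across the 6 libraries. The Pearson correlation of log2 CPM with Soat2 was 0.66 for Abcg1, 0.51 for Mylip, 0.50 for Apoe, 0.39 for Nr1h2, -0.31 for Abca1 and -0.39 for Soat1. These 6 libraries fall into 2 clusters of Soat2 level, so such a value mainly reflects the difference between the groups and is given as a description. Of 13109 other IDs whose mean level was 5 CPM or more, 174 correlated with Soat2 at more than 0.9. The 2 closest, ENSMUSG00000057215 at 0.998 and ENSMUSG00000021175 at 0.997, have no name in the sources used here. Their log2 fold changes over all 6 libraries were 0.37 and 0.31, against 4.43 for Soat2, since a correlation takes no account of the size of a difference. The rank (Spearman) correlation with Soat2 was 0.943 for both, so the order of the libraries was also close to that of Soat2. Over the 5 closest IDs the log2 fold change ran from 0.08 to 2.53.

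**Figure D5:**
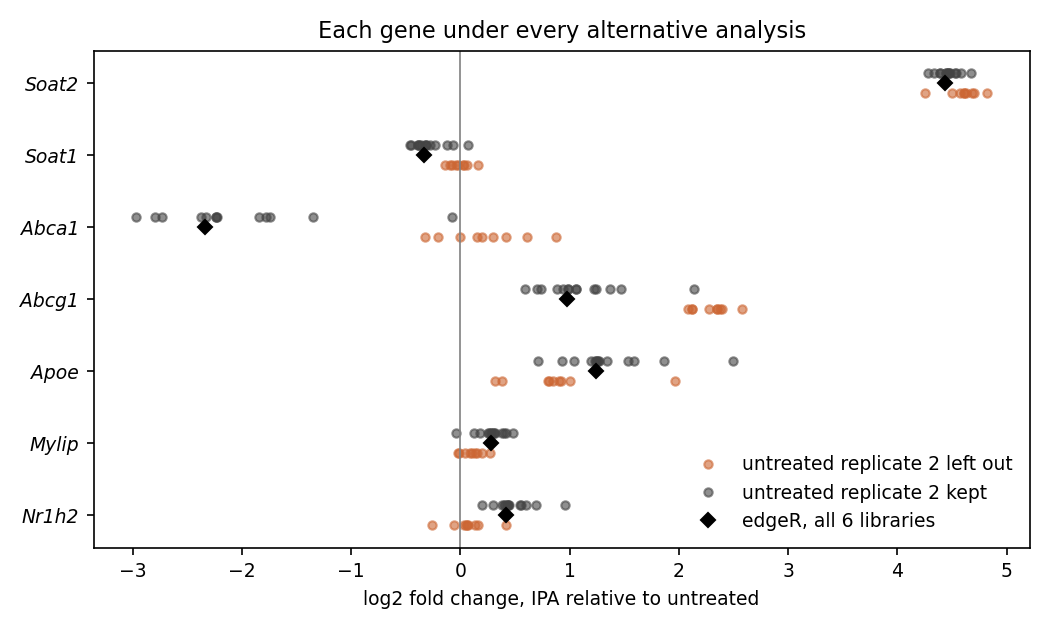
Log2 fold change of each gene, IPA relative to untreated (x axis), under each alternative analysis; dark points keep untreated replicate 2, orange points leave it out and black diamonds are the edgeR values over all 6 libraries. Soat2 stays between 4.25 and 4.82 in all of them, whereas Abca1 runs from -2.97 to 0.87.

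The genes lie at separate places in the genome (GRCm38.p6, RefSeq), where they were looked up by symbol and not by Ensembl ID. Soat2 is at chr15:102150415-102163469, with Igfbp6 lying 902 bp below it and Csad 13527 bp above it in coordinates, whatever the strand. Soat1 is at chr1:156428108-156474328, Abca1 at chr4:53030789-53159988, Abcg1 at chr17:31057694-31117984 and Mylip at chr13:45389742-45411940. Apoe, at chr7:19696244-19701310, and Nr1h2, at chr7:44549616-44553968, share a chromosome but not a neighbourhood. No other RefSeq gene overlapped the span of any member in that annotation. The span of Tomm40 lies 2 bp above that of Apoe in coordinates, so that reads there could be hard to assign. No other ID had counts within 5% of a member's in all 6 libraries.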

How the data were processed

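The authors deposited raw read counts per Ensembl gene ID for 6 libraries of 4T1 cells, whole numbers for 35304 IDs, per the file headers and values. Builds GRCm38 and mm10 are named in the submitters' processing notes; aligner, counting tool and handling of strand: not given in the sources used here. Groups came from the treatment labels and replicate numbers from the titles.

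Counts were fitted on the whole table with edgeR 4.0.16 in R 4.3.3 (quasi-likelihood, robust, TMM factors, filterByExpr), and p-values were adjusted by Benjamini-Hochberg over all IDs. The standard error is the log2 fold change divided by the square root of F, and intervals use the fit's total degrees of freedom. CPM use library totals. Alternatives were DESeq2 1.42.0, limma-voom 3.58.1, other factors and filters, the replicate block and libraries left out. The procedure was tested on simulated data. These were drawn with a common spread estimated without untreated replicate 2, so they do not reproduce how far that library stands apart.

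The members, lists and tests were chosen with earlier results of these data known. The rule for named genes took all members and the IDs most like Soat2 (prior count 2, mean of at least 5 CPM). The 14 lists by symbol and the neighbours of Soat2 were not analysed here, since 0 of 49997 reference genes carry an Ensembl ID; sequences were not used here. Every pair of replicates differed beyond sampling noise, with a chi-square of at least 7.11 per degree of freedom.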

Additional observations from a re-analysis of the deposited data

How the results depend on the processing

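The counts of IDs called over the whole table depended on untreated replicate 2. Over all 6 libraries edgeR called 0 higher and 0 lower. With 1 library left out in turn, the counts ran from 0 to 322 higher and from 0 to 564 lower, those above 0 coming from leaving out untreated replicate 2. Over all 6 libraries, DESeq2 called 22 and 63, limma-voom with sample quality weights 492 and 755, library totals 1 and 0, and no filter 1 and 0, the single ID being Soat2. Without untreated replicate 2, DESeq2 gave 634 and 661, limma-voom 660 and 1009, and library totals 691 and 327. With a further library left out besides it, the counts were 719 and 763 (IPA replicate 1), 92 and 170 (untreated replicate 1), 509 and 718 (untreated replicate 3), 221 and 244 (IPA replicate 2) and 131 and 153 (IPA replicate 3). The last 4 of these settings, and the ratio of Soat2 to Soat1 reads, were chosen after seeing the data. The other settings, leaving out untreated replicate 2 among them, were set with earlier results of these data known.

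Soat2 kept its direction in 24 of 24 alternatives, from 4.25 to 4.82 on the log2 scale, and Abcg1 and Apoe in 23 of 23 each. The alternatives reuse the same libraries, so a kept direction is a description only. With 1 library other than untreated replicate 2 left out, the edgeR adjusted p of Soat2 ran from 0.493 to 0.998. Abca1, which the filter of 1 CPM in 3 libraries removed, ran from -2.97 to 0.19 with 1 library left out. Leaving out untreated replicate 2, it was 0.41 with DESeq2, 0.30 with library totals, and 0.61, 0.15 and 0.87 without untreated replicate 3, IPA replicate 2 or IPA replicate 3 besides; it stayed negative with limma-voom, at -0.33, and without IPA replicate 1 or untreated replicate 1 besides, at -0.21 and -0.0074. Soat1, -0.33 in the main comparison, was 0.066 with sample quality weights. With untreated replicate 2 left out it was 0.036 with limma-voom, 0.063 with library totals, 0.16 without IPA replicate 1 besides and 0.020 without untreated replicate 1 besides. Mylip was -0.041 with sample quality weights and, without untreated replicate 2, -0.021 with limma-voom and -0.0089 without IPA replicate 1 besides. Nr1h2 was -0.26 and -0.057 without untreated replicate 2 and either untreated replicate 1 or IPA replicate 2. Beyond the libraries left out, the cause was not tested. The IPA-minus-untreated difference of the summed level of the members was 38.9 CPM on library totals and 13.9 CPM on TMM-scaled sizes.

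With the replicate block edgeR called 0 higher and 0 lower, and the log2 fold change of Soat2 was 4.44. Deviations of same-numbered libraries correlated at -0.08, 0.02 and 0.16. Those of differently numbered libraries were not set beside them, so these values cannot decide whether the numbers pair libraries. The main comparison took no pairing. Depth limits Abca1, Abcg1 and Apoe most, which had 2 to 9 reads in IPA replicate 1. Planned counts over the pathway lists were not run.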
